A study of Mus musculus with 108 samples.

Results

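Poised enhancers that arose by 12 months were taken as the autosomal stretches of mouse liver chromatin that carried none of 4 histone marks at 3 months of age and the poised enhancer signature at 12 months. They were found among 12313718 autosomal bins of 200 bp, each of which had been given 1 of 8 chromatin states in each of 3 groups of mice. A bin was a member if it was in state 8 (quiescent chromatin) in SD 3m and in state 5 (poised enhancer) in SD 12m, in CR 12m or in both, and 53142 bins met these conditions among the 8122212 autosomal bins in state 8 in SD 3m. They were split into 13354 bins poised in SD 12m only (SD only), 29485 in CR 12m only (CR only) and 10303 in both diets (both). The members were selected on the state labels of all 3 groups, so the sizes of these sets are a description and carry no test.

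The livers came from C57BL/6 female mice and had been fixed in formalin and embedded in paraffin. SD 3m were mice of 3 months on a standard diet (8 mice, 30 ChIP-seq libraries), SD 12m were mice of 12 months on the same diet (8 mice, 29 libraries), and CR 12m were mice of 12 months fed a diet with 30% caloric restriction from the age of 3 months (9 mice, 29 libraries). The study also profiled mice of 6 months, which were not analysed here. The libraries of each group were merged for each of the 4 marks (H3K4me3, H3K4me1, H3K27ac and H3K27me3) before states were assigned, so that each group has 1 segmentation, no difference between groups can be set against the spread between mice, and no p-value is given. H3K4me1, the mark that defines state 5, came from 8 (SD 3m), 6 (SD 12m) and 9 (CR 12m) libraries, and H3K27ac from 8, 7 and 9, while how many reads stand behind each merged file is unknown. In bulk liver, a mark in more cells and more of the mark in each cell cannot be told apart.

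Enhancers are stretches of DNA that raise transcription of genes at a distance when bound by transcription factors. Their nucleosomes carry H3K4me1, written by the methyltransferases Kmt2c and Kmt2d, and active enhancers carry in addition H3K27ac, written by Ep300 and Crebbp. An enhancer with H3K4me1 and little H3K27ac is called poised or primed. In the model of the study, state 3 combines H3K27ac with H3K4me1, state 4 has H3K27ac with little H3K4me1, state 5 has mainly H3K4me1, and state 8 has none of the marks. The signal of the marks in the member bins was not analysed here, and the name poised enhancer rests on the authors' annotation of state 5. The TSS of 12 of 12 hepatocyte marker genes (among them Alb, Apoa1 and Ttr, which encode plasma proteins made by the liver) lay in a state from 1 to 4 in all 3 groups.

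The following sequences show what these regions look like. The first 3 are the central 200 bases of the longest unbroken stretch of each class, on the forward strand of GRCm38.p6 (mm10), and the other 2 are the 250 bases upstream of the start site of protein-coding genes whose TSS lay in a bin that became poised in both diets, 5′ to 3′ on the strand of the gene. Capitals mark CpG dinucleotides, which are described below as one of the features of the members.
Both diets, Dpyd intron, chr3:118873101-118873300: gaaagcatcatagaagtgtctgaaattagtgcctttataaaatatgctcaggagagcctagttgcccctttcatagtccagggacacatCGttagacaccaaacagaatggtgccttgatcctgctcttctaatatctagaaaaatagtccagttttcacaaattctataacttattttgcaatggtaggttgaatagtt
SD only, Ptprb, chr10:116345001-116345200: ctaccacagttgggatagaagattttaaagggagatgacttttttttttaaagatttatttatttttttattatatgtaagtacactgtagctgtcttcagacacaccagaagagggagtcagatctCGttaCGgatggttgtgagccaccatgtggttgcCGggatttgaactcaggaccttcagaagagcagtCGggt
CR only, Slc25a21 intron, chr12:57022201-57022400: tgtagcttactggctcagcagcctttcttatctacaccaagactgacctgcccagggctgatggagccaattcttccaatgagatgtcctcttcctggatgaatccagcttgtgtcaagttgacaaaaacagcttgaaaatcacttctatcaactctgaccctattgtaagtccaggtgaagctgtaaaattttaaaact
Dnah11 upstream, chr12:118199044-118199293, minus strand: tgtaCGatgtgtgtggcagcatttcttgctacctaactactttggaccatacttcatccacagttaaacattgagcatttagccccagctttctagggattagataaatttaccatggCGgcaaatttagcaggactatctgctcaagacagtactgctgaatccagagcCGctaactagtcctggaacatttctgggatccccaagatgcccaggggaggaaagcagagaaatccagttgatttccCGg
Cyp2c65 upstream, chr19:39060756-39061005, plus strand: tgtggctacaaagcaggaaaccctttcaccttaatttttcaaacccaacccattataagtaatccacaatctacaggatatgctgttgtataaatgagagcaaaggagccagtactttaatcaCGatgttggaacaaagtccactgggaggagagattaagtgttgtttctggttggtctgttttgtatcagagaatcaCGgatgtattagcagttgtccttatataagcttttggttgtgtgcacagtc

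The 200 bases in Dpyd hold 1 CpG at a GC content of 37.5%, those in Ptprb 4 at 40.5% and those in Slc25a21 none at 43.0%. None of these sequences is a CpG-dense stretch of the kind seen at many promoters. The sequence upstream of Dnah11 has 4 CpG and a GC content of 46.0%, and it lies inside the stretch that became poised (chr12:118198401-118200000). That upstream of Cyp2c65 has 2 and 39.6%, and the poised stretch (chr19:39061001-39061800) begins at the end of it.

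More bins became poised under caloric restriction than on the standard diet. Of the state 8 bins of SD 3m, 23657 were in state 5 in SD 12m (0.291%, Wilson 95% interval 0.288 to 0.295, 4.73 Mb) and 39788 in CR 12m (0.49%, 0.485 to 0.495, 7.96 Mb), a ratio of 1.68. Together the members made up 0.654% of these bins. The intervals cover the counting of bins only, and neighbouring bins are not independent. CR 12m, the group with the larger number, also had the most merged H3K4me1 libraries, and the part of this in the result was not tested. When bins closer than 1 kb to another state at 3 months were left out, the shares were 0.141% in SD 12m against 0.284% in CR 12m, so that CR 12m was still the higher.

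On 19 of 19 autosomes the CR 12m share was the higher. It ranged from 0.200% on chromosome 8 to 0.882% on chromosome 19 in SD 12m, and from 0.276% on chromosome 5 to 1.05% on chromosome 19 in CR 12m. Chromosome 19 thus had the highest share in both groups, and its members were 1.60% of its state 8 bins. All autosomes of a group come from the same merged libraries, so they are not replicates of a diet.

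**Figure D1:**
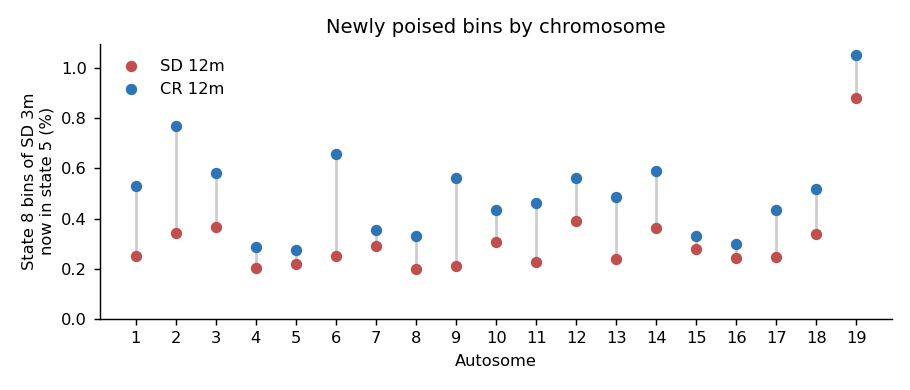
Percent of the state 8 bins of SD 3m on each autosome that were in state 5 in SD 12m (red) or in CR 12m (blue). The CR 12m point lies above the SD 12m point on 19 of 19 autosomes, and chromosome 19 stands highest with 0.882% and 1.05%. The autosomes of a group share the same merged libraries and are not replicates.

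State 5 itself shrank over the same period, from 5.61% of autosomal bins at 3 months to 2.75% (SD 12m) and 2.47% (CR 12m). The members were therefore a small inflow, making up 6.98% of the state 5 bins of SD 12m and 13.1% of those of CR 12m. The flow from state 5 to state 8 was larger, with 104711 bins (15.1% of state 5 in SD 3m) in SD 12m and 128519 bins (18.6%) in CR 12m.

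The diets shared part of the members. The 10303 bins poised in both were 43.6% of the bins that became poised in SD 12m and 25.9% of those in CR 12m, and 19.4% of all members. Of all state 8 bins of SD 3m, 0.49% were in state 5 in CR 12m and 0.291% in SD 12m. Both lists are taken from the state 8 bins of the same SD 3m segmentation, so an error in a label of SD 3m counts in both.

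A larger share of the SD only bins than of the CR only bins was in state 3 or 4 in the other diet. The shares were 53.0% (7082 of 13354) and 27.9% (8221 of 29485), so the CR only bins had the larger count. Most CR only bins were in state 8 in SD 12m. Of the CR only bins in state 3 or 4, nearly all were in state 4 (8078 of 8221). The paper calls state 4 an active enhancer and also a weak enhancer signature. Of the SD only bins, 18.4% were in state 3 in CR 12m, 34.6% in state 4 and 45.8% in state 8. Of the CR only bins, 0.485% were in state 3 in SD 12m, 27.4% in state 4 and 71.0% in state 8. The diets differed in the same direction over all state 8 bins of SD 3m, of which 0.141% were in state 3 in CR 12m against 0.0149% in SD 12m, and 2.77% against 2.41% in state 4.

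States 3 to 5 were taken as the enhancer states. Of all bins that became poised in SD 12m, 73.5% (17385 of 23657) were in an enhancer state in CR 12m. Of those that became poised in CR 12m, 46.6% (18524 of 39788) were in an enhancer state in SD 12m. Both counts include the same 10303 bins poised in both diets, so the difference in share follows in part from the sizes of the lists. Over all state 8 bins of SD 3m the same shares were 3.40% in CR 12m and 2.72% in SD 12m. State 6 is the Polycomb state, and state 7 has weak H3K4me3 and minimal H3K27me3. The authors labelled state 7 age-related and also annotated it as repeats. Of the members, 1.05% of SD only and 1.10% of CR only bins were in state 6 or 7 in the other diet. By contrast, 12.4% of all state 8 bins of SD 3m were in one of them in CR 12m and 27.2% in SD 12m. CR 12m had more H3K27ac libraries (9) than SD 12m (7), and the part of this in the shares of states 3 and 4 was not tested.

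**Figure D2:**
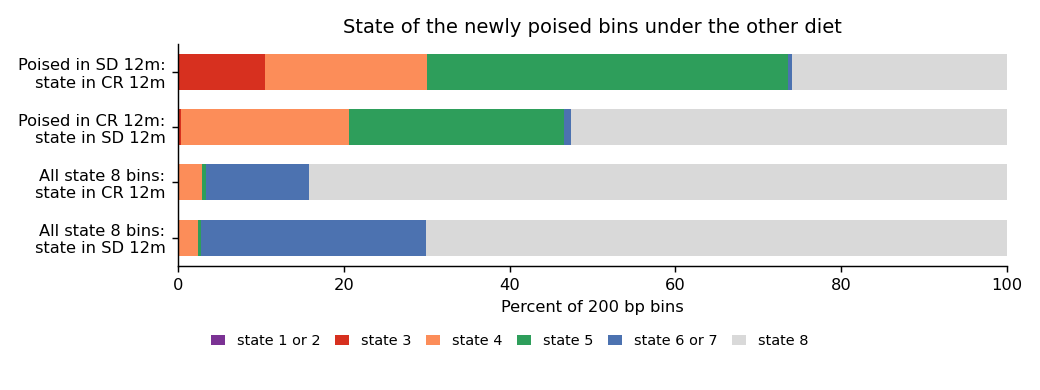
Percent of bins in each state under the other diet, for the bins that became poised in SD 12m or CR 12m (upper bars) and for all state 8 bins of SD 3m (lower bars). Enhancer states 3 to 5 hold 73.5% and 46.6% of the bins in the upper bars and 3.40% and 2.72% in the lower bars, where state 8 prevails. The upper bars stand for lists of unlike size (23657 and 39788 bins) that share 10303 bins.

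The members lay in short stretches next to enhancers that were present at 3 months. Joined into unbroken runs they made 7374 stretches with a median length of 1000 bp, of which 16.3% were a single bin and 261 were 5 kb or longer. At 3 months, 76.1% of the stretches touched a bin in an enhancer state, 59.2% touched one in state 5, and 22.4% had state 8 on both sides. Contact with state 5 was most frequent for stretches of both diets (68.3% of 1782) and least for CR only stretches (39.4% of 4535), with SD only stretches between them (52.1% of 2831). These stretches were joined within each class. A stretch that adjoins a member of another class therefore has state 8 at that end by construction, and the part of this in the order of the classes was not tested.

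Measured by bin, 46.3% of the members were within 1 kb of an enhancer state of SD 3m, against 3.33% of all state 8 bins. The median distance was 1.2 kb for members and 156.4 kb for all state 8 bins, and 87.6% of members against 15.5% of state 8 bins were within 10 kb. State 8 bins that went to state 3 or 4 at 12 months were similarly close, with 39.3% within 1 kb and a median of 1.4 kb. Within 10 kb they stood at 95.2%, above the members, so closeness to an enhancer state was not particular to the members. Of the members, 35.0% were within 1 kb of state 5 of SD 3m, against 12.6% of the state 8 bins that went to state 3 or 4 at 12 months and 1.45% of all state 8 bins. SD only and both bins were closer to an enhancer state (53.4% within 1 kb in each) than CR only bins (40.7%). The states of neighbouring bins are not independent in the segmentation, as the model smooths along the genome.

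**Figure D3:**
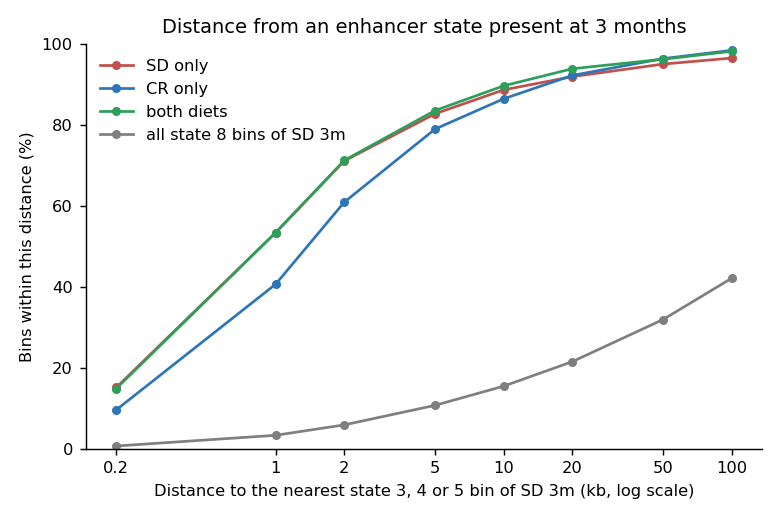
Cumulative percent of bins by distance to the nearest bin in state 3, 4 or 5 in SD 3m (log axis), for members of each class and for all state 8 bins of SD 3m. CR only lies below the other classes at 1 kb (40.7% against 53.4%), and the 3 classes reach 86.5% to 89.7% at 10 kb, where all state 8 bins stand at 15.5%.

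Some poised regions were quiescent over their whole length at 3 months. In SD 12m, 3391 unbroken stretches of state 5 held members, and 23.6% of these were wholly in state 8 at 3 months. In CR 12m, 4655 stretches held members and 34.0% were wholly in state 8 at 3 months. Of all stretches with members, 66.0% (SD 12m) and 52.9% (CR 12m) held at least 1 bin that was already in state 5 at 3 months. The median length of these stretches was 3000 bp (SD 12m) and 2600 bp (CR 12m).

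The longest stretches lay mainly in introns. The longest that became poised in both diets was 17.6 kb in an intron of Dpyd (chr3:118864401-118882000), which encodes dihydropyrimidine dehydrogenase, the enzyme that starts the breakdown of uracil and thymine. Another of 9.0 kb in the same gene (chr3:118825201-118834200) came after it, and an intronic stretch of 15.0 kb in Zfp385b, a zinc finger gene (chr2:77431201-77446200), lay between them in length. The stretch in Zfp385b filled its state 8 stretch of SD 3m from end to end.

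The longest SD only stretch was 13.0 kb in Ptprb (chr10:116338601-116351600), the receptor tyrosine phosphatase of endothelial cells, and it was the only 1 of the first 3 of its class to include exon sequence (2301 bases). Of its 65 bins, 42 were in state 8 and 23 in state 6, the Polycomb state, in CR 12m. The next were 7.2 kb each, in Rsrc1, a splicing factor gene (chr3:67313601-67320800), and in Kcne1, a potassium channel subunit gene (chr16:92349401-92356600), and both were wholly in state 8 in CR 12m.

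The longest CR only stretch was 12.6 kb in an intron of Slc25a21, a mitochondrial carrier of dicarboxylates (chr12:57016001-57028600). It stood 60.4 kb from the nearest enhancer state of SD 3m, inside a state 8 stretch of 96.2 kb, and was wholly in state 8 in SD 12m. The second, of 11.0 kb, was in Msra, which repairs oxidised methionine (chr14:64271801-64282800), and in SD 12m state 4 held 23 of its 55 bins. The third, of 10 kb, overlapped the long noncoding RNA gene Gm27216 (chr9:83234201-83244200), at 87.6 kb from the nearest protein-coding gene, Hmgn3.

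Members were mostly intronic. They fell in gene bodies in 69.7% of cases, against 32.4% of all state 8 bins, 59.0% of the state 8 bins that went to state 3 or 4, and 85.7% of the bins in state 5 in all 3 groups. The both class had the highest share in gene bodies (80.9%), followed by CR only (67.6%) and SD only (65.9%). The midpoint of the bin lay in an exon for 2.91% of members and 1.79% of all state 8 bins. Bins that overlap an exon only beside their midpoint are not counted in these shares. Of the members, 2.43% lay within 2 kb of a TSS and 0.406% within 1 kb of a TSS state (1 or 2) of SD 3m, against 1.67% and 0.0767% of all state 8 bins.

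In GC and CpG content the members were intermediate. Their GC content was 43.5%, against 40.9% in all state 8 bins, 46.7% in those that went to state 3 or 4, and 42.7% in bins in state 5 in all 3 groups, and it was above that of state 8 on 19 of 19 autosomes. CpG dinucleotides followed the same order, with 9.01 per kb in members, 7.31 in all state 8 bins, 11.7 in those that went to state 3 or 4, and 8.80 in lasting state 5 bins. Bases marked as repeats in the reference made up 24.8% of the members and 36.9% of all state 8 bins, and were lower in members on 19 of 19 autosomes. They made up 26.2% of the bins that went to state 3 or 4 and 28.8% of lasting state 5 bins, so these sets were also low in repeats. GC content was lowest in the both class (42.0%) and highest in CR only (44.1%).

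Short motif matches of FOXA, AP-1 and PU.1 were about as frequent in members as in all state 8 bins. Those of C/EBP were slightly less frequent, and those of HNF4A and ETS, both rare, were somewhat more frequent. FOXA (TGTTTAC), the family that opens liver enhancers, matched 3.05% of members and 3.00% of all state 8 bins on either strand, C/EBP (TTGCNNAA) 9.01% and 9.80%, and AP-1 (TGANTCA) 5.94% and 5.94%. HNF4A (CAAAGTCCA), a nuclear receptor of hepatocytes, matched 0.318% and 0.243%, ETS (CCGGAAGT) 0.126% and 0.0917%, and PU.1 (GAGGAAGT), a macrophage factor, 1.13% and 1.17%. Runs of 6 or more CA units were in 3.87% of members and 2.89% of all state 8 bins, and their share was above that of state 8 on 19 of 19 autosomes, with CR only highest (4.22%). Runs of 6 or more GA units were in 1.41% and 1.35%. CA runs were also frequent in bins that went to state 3 or 4 (3.49%) and in lasting state 5 bins (3.47%). In these 2 sets HNF4A matched 0.269% and 0.284%, and ETS 0.174% and 0.135%, so these higher shares were not particular to the members. The ETS letters hold a CpG, and members had more CpG than all state 8 bins (9.01 against 7.31 per kb). The part of base content in the motif shares was not tested. A match of letters is not a bound site.

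Of 20021 protein-coding autosomal genes, 2116 (10.6%) had at least 1 member bin in the window from 5 kb before the TSS to the end of the transcript. Such genes were long, with a median of 70.5 kb (127 kb for genes with a bin of the both class) against 16.9 kb for all genes. Genes of 43.9 kb or longer, the upper 5005 of 20021, held 86.2% of the member bins counted in windows. Relative to the state 8 bins in the windows the spread was smaller, with 1.49% members in these long genes and 0.489% in the 5006 genes of up to 5.73 kb. A bin in the windows of overlapping genes counted for each.

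Dpyd held more bins of the both class than any other gene. Its window had 2990 state 8 bins in SD 3m, of which 861 became poised in both diets, 115 in SD 12m only and 257 in CR 12m only. Enhancer states 3 to 5 covered 31.1% of the window at 3 months, 53.2% in SD 12m and 56.7% on CR at 12 months, and state 5 alone 25.2%, 46.4% and 44.2%. The 47 stretches of the both class began 119 kb downstream of the TSS and ended at 766 kb, and 1 of their bins was counted as exonic. The TSS was in state 1 in all 3 groups. Dpyd was named for its bins of the both class, so the rise of state 5 in its window follows in part from the choice.

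The next genes by bins of the both class were Immp2l (296), a subunit of the protease of the inner mitochondrial membrane, Naaladl2 (154), Msra (134), Ube2e2 (128), a ubiquitin-conjugating enzyme, and Slc25a21 (124). They were followed by Gphn (108), the scaffold gephyrin, Celf2 (106), an RNA-binding splicing factor, Chchd3 (101), a subunit of the mitochondrial cristae complex, and Esrrg (99), an orphan nuclear receptor of energy metabolism. The enhancer states covered a larger share of the window at 12 months than at 3 months in both diets in 8 of these 10 genes, Dpyd included. The genes were chosen for bins that entered state 5 in both diets, so this count follows in part from the choice and carries no test. In Gphn they covered 40.9% at 3 months, 39.2% in SD 12m and 42.0% on CR at 12 months, and in Celf2 24.0%, 24.0% and 27.6%. In Gphn state 4 covered 17.1%, 0.777% and 1.38% of the window in this order, and state 5 8.55%, 23.2% and 23.4%.

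Relative to the state 8 bins in the window, among genes with at least 50 of them, the both class was densest in the uncharacterised gene 9430038I01Rik (51.2%) and in Hsd17b12 (50%), a reductase of very-long-chain fatty acid synthesis. Immp1l, the partner subunit of Immp2l, had 41.1%, Tfpi2, a protease inhibitor, 38.2%, and Sult2a1, which sulfates hydroxysteroids and bile acids, 30.1%. Dpyd (28.8%), 9930021J03Rik (28.3%), Msra (28.3%), the adaptor Skap2 (25.9%) and Prr16 (25.8%) completed the first 10. In 7 of these 10 genes over 50% of the window was in an enhancer state at 3 months, with 70.9% in Immp1l and 85.7% in Hsd17b12.

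Sult2a1 had the lowest share of these 10, with 6.90% of its window in an enhancer state at 3 months, against 46.1% (SD 12m) and 69.8% (CR 12m). In SD 12m all of this was state 5, whereas in CR 12m state 5 covered 37.1%, state 4 23.3% and state 3 9.48%. Its TSS was in state 8 in SD 3m and in SD 12m and in state 4 in CR 12m. The gene was chosen for its share of bins of the both class, so the rise of state 5 follows in part from the choice. Sult2a1 belongs to a family of near-identical neighbouring genes, so that the placing of reads between copies is uncertain.

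**Figure D4:**
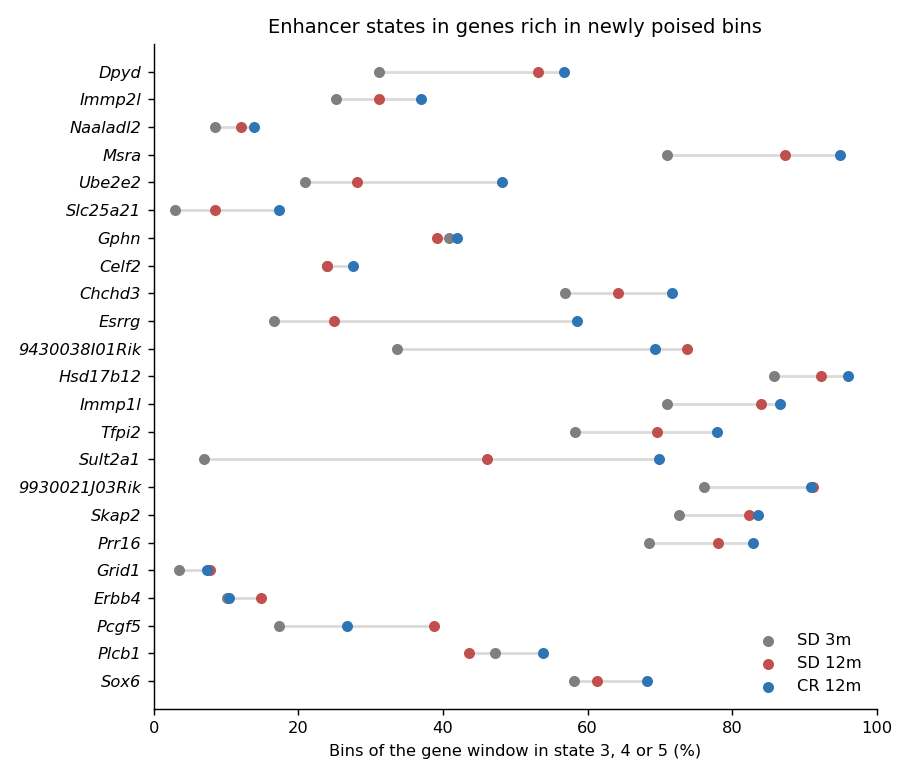
Percent of the bins of each gene window in state 3, 4 or 5 in SD 3m (grey), SD 12m (red) and CR 12m (blue), for the genes with most member bins or the highest share of them. Sult2a1 goes from 6.90% in SD 3m to 46.1% and 69.8%, and Esrrg from 16.6% to 24.9% and 58.6%. The genes were chosen for their member bins, so rises at 12 months follow in part from the choice.

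The genes with most SD only bins were Grid1 (152 bins), a glutamate receptor of the delta type, Erbb4 (133), the receptor tyrosine kinase for neuregulins, Esrrg (126), Dpyd (115) and Pcgf5 (97), a subunit of a variant Polycomb complex. In Grid1 the bins lay in 10 stretches between 287 and 363 kb downstream of the TSS, and state 5 covered 0.887% of the window at 3 months, 7.02% in SD 12m and 0.574% on CR at 12 months. The enhancer states together covered 7.83% of this window in SD 12m against 7.33% in CR 12m, where they were mainly state 4 (4.02%) and state 3 (2.74%). In Pcgf5 state 5 covered 8.49%, 30.2% and 12.6% in the same order. These genes were chosen for their SD only bins, and Erbb4 and Esrrg, named by the same rule, had less state 5 in SD 12m than in CR 12m (7.01% against 7.44% and 14.8% against 20.3%).

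The genes with most CR only bins were Esrrg (446), Plcb1 (278), a phospholipase C that acts in calcium signalling, Ube2e2 (273), Immp2l (267) and Sox6 (260), a transcription factor of the HMG box family. In Esrrg the enhancer states covered 16.6% of the window at 3 months, 24.9% in SD 12m and 58.6% on CR at 12 months. State 5 made up 5.37%, 14.8% and 20.3%, and state 3 3.14%, 4.16% and 21.0%, so that in CR 12m both the poised and the active signature were at their highest. Esrrg was chosen for its CR only bins, so the rise of state 5 in CR 12m follows in part from the choice. The TSS of Esrrg was in state 5 in SD 3m and SD 12m and in state 1 in CR 12m.

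**Figure D5:**
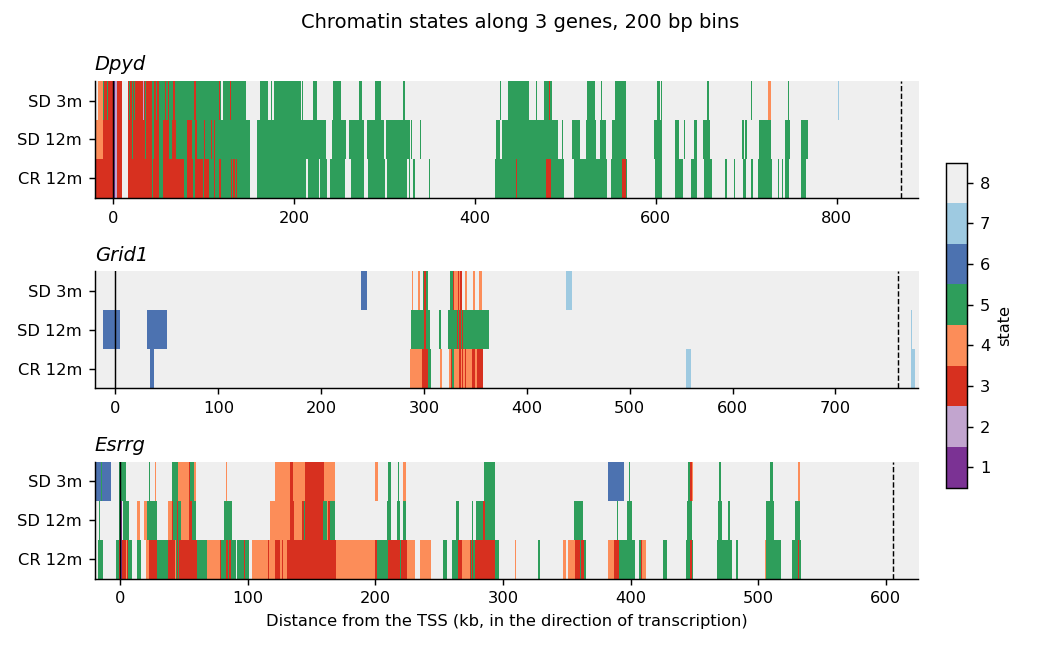
Chromatin state of each 200 bp bin along Dpyd, Grid1 and Esrrg in the 3 groups, by distance from the TSS in kb (solid line, TSS; dashed line, end of the transcript; colours, states 1 to 8). Green (state 5) widens in both 12-month tracks of Dpyd, between 287 and 363 kb in SD 12m in Grid1, and in the CR 12m track of Esrrg together with red (state 3). Each gene was chosen for its bins that entered state 5.

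Some start sites became poised. Of 5096 protein-coding TSS in state 8 in SD 3m, 48 (0.942%) were in a member bin, against 0.654% of all state 8 bins, and of these 48, 12 were SD only, 31 CR only and 5 in both. The 5 were those of Dnah11, a dynein of motile cilia, Cyp2c65, a cytochrome P450, Mup10 and Mup1, which encode major urinary proteins secreted by the liver, and Kcnh3, a potassium channel. The stretch at Dnah11 was 1600 bp long and that at Cyp2c65 800 bp, and the other 3 were 400 bp or shorter. Cyp2c and Mup genes have near-identical copies, which makes the placing of reads uncertain there.

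Lists of genes of known function are given beside the 10.6% of all protein-coding autosomal genes that had at least 1 member bin. Of 12 hepatocyte markers 2 had members, Cps1, the first enzyme of the urea cycle (2 bins), and Apob, the protein of very-low-density lipoprotein (9 bins). Of 14 hepatocyte transcription factors 2 had members, Hnf4a with 1 bin and Onecut2 with 19, which were all of the state 8 bins in the Onecut2 window and became poised in both diets. Over all protein-coding genes the members were 1.42% of the state 8 bins in windows, against 9.17% of 120 bins for the hepatocyte markers and 30.3% of 66 bins for the factors, of which Onecut2 held 19 of 20 member bins.

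Markers of other liver cells had members in some lists and none in others. No member lay in the windows of 10 bile duct markers (0 of 1042 state 8 bins, which allows a share of up to 0.288%), 12 stellate cell and fibroblast markers (0 of 2221, up to 0.135%) or 11 Kupffer cell and macrophage markers (0 of 1031, up to 0.291%). These limits stand for 3 bins and cover counting error only, and they are too narrow because the bins of a gene are not independent. By genes, 10.6% of all genes held a member, so a list of 10 to 12 genes may hold none at that share. Median gene length was 15.3 kb (bile duct), 24.0 kb (stellate) and 13.2 kb (Kupffer), against 39.5 kb (endothelial) and 16.9 kb (all genes). Members were rarer in short genes, and the part of length in these counts was not tested. Of 12 sinusoidal endothelial markers 3 had members, which made up 2.21% of 997 state 8 bins against 1.42% over all genes, with 16 SD only bins in Stab2, the scavenger receptor for hyaluronan, 3 SD only in the cadherin gene Cdh5 and 3 CR only in the transcription factor gene Erg. Of 16 lymphocyte markers, Bach2, a transcriptional repressor of lymphocytes, had 11 SD only bins (0.827% of the 1330 state 8 bins of the list). The 12 developmental transcription factors, with a median length of 4.46 kb, had none (0 of 306, up to 0.980%).

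Of 7 fetal liver genes, Igf2bp3, which encodes an RNA-binding protein of fetal tissues, had 40 CR only bins, the only members of this list (3.31% of 1210 state 8 bins, against 1.42%). State 5 covered 10.4% of its window at 3 months, 6.08% in SD 12m and 19.6% on CR at 12 months. Of 16 enzymes and cofactors of enhancer marks 3 had members (9.32% of 1856 state 8 bins, against 1.42% over all genes), with 164 bins in Dpf3, a subunit of the BAF chromatin remodelling complex (62 both, 32 SD only and 70 CR only), 7 in Kmt2c and 2 in Paxip1. In Dpf3 the enhancer states covered 34.0% of the window at 3 months, 50.3% in SD 12m and 50.8% on CR at 12 months. State 5 alone did not rise there, with 16.2%, 12.4% and 14.0% in this order. In Kmt2c the enhancer states fell, with 81.1%, 50.6% and 60.5%, while state 5 covered 22.7%, 35.0% and 35.3%. In Paxip1 the enhancer states covered 7.07%, 8.13% and 8.83%.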

How the data were processed

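H3K4me3, H3K4me1, H3K27ac and H3K27me3 were profiled by ChIP-seq in formalin-fixed, paraffin-embedded mouse livers. Reads were aligned by the authors to mm10 with BWA (0.6.2-r126 in the submitters' processing notes, with SAMtools 0.1.18), merged by group and mark, binarized and segmented with ChromHMM into 8 states. The deposited value is a state label for each bin of 200 bp, not a signal, and it already includes the merging, the binarization and the smoothing along the genome. The read depth behind a label is unknown. Samples were grouped from their labels, and all 3 deposited segmentations were used whole, after checking that they hold the same 13168874 bins and end where GRCm38.p6 does.

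Members, stretches, distances and features were computed in Python 3.11.15 (numpy 2.4.6, scipy 1.17.1, pandas 2.3.3, matplotlib 3.10.9), and the functions were tested on simulated segmentations. Genes were the longest curated RefSeq transcripts of GRCm38.p6 (26089 genes), and the upstream sequences were taken from the RefSeq promoters of the same build. GC content, CpG and motifs were taken over bins without unassembled bases, and lower-case letters of the reference were counted as repeats. The shares of bins in gene bodies and exons count a bin by its midpoint. Intervals are Wilson 95% intervals over bins and cover counting error only. The regions named were the 3 longest stretches of each class. The genes named were the 10 with most bins of the both class, the 10 with the highest percent among genes with at least 50 state 8 bins, the 5 with most SD only and with most CR only bins, those with a TSS in a bin of the both class, and those of 10 lists (hepatocyte markers, hepatocyte transcription factors, bile duct, stellate and fibroblast, Kupffer and macrophage, sinusoidal endothelial and lymphocyte markers, fetal liver genes, developmental transcription factors, and enzymes and cofactors of enhancer marks). The members and lists were chosen with earlier results of these data known. No test across mice was made, as each group has 1 segmentation. The alternatives were the addition of chromosome X, stretches of at least 3 bins only, removal of bins less than 1 kb from another state at 3 months, windows of 1 kb, and leaving out chromosome 19.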

Additional observations from a re-analysis of the deposited data

How the results depend on the processing

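Under 5 alternatives, 29 values were recomputed, of which 9 stayed within the Wilson 95% interval of the main value and 20 moved beyond it. CR 12m had the higher share of newly poised bins under each alternative. The share of state 8 bins that became poised in SD 12m, 0.291% in the main analysis, was 0.286% with chromosome X, 0.273% in stretches of at least 3 bins, 0.141% when bins less than 1 kb from another state at 3 months were removed, 0.287% in windows of 1 kb and 0.278% without chromosome 19, an alternative chosen after seeing the data. In CR 12m, 0.490% became 0.474% with chromosome X, 0.467% in stretches of at least 3 bins, 0.284% away from boundaries and 0.477% without chromosome 19. The bins left out near boundaries are those next to other states by construction, and bins in both diets went from 19.4% of members to 17.0% without them and to 20.2% in stretches of at least 3 bins. The share within 1 kb of an enhancer state, 46.3%, was 44.2% in stretches of at least 3 bins and 42.9% in windows of 1 kb, and no value could be had without the bins near boundaries. GC content, 43.5%, was 43.4% with chromosome X, 43.45% in stretches of at least 3 bins, 42.97% away from boundaries and 43.3% in windows of 1 kb. Gene bodies held 69.7%, against 70.3% in stretches of at least 3 bins, 70.9% away from boundaries and 70.2% in windows of 1 kb.

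No paired analysis was possible because the libraries of each group were merged into 1 segmentation, which also leaves no replicate to leave out. Differences between groups could not be compared with the spread between mice. How many reads each merged file holds is unknown, and groups differ in their number of libraries, so that fewer detected marks and fewer libraries cannot be told apart.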

Other observations

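Members were also counted on chromosome X, which the rule left out. There 2169 bins changed state in the same way, 0.372% of the state 8 bins of SD 3m, with 0.216% poised in SD 12m against 0.252% in CR 12m.

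The members were unevenly spread along the autosomes. Of 2473 windows of 1 Mb, 1673 held at least 1 member, and the 248 windows with most members held 54.2% of them. The window with most was chr3:119000001-120000000, over the distal part of Dpyd, with 650 members, followed by chr12:41000001-42000000, over Immp2l, with 603, and chr1:187000001-188000000, over Esrrg, with 601.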
